A study of Mus musculus with 4 samples.

Results

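The genes described here encode the subunits of the proteasome, and they were taken as every gene of the 4 tables whose symbol begins with Psma, Psmb, Psmc, Psmd or Psme. There were 43 such genes among 13772. One of them, Psmc3ip, encodes a meiotic recombination protein and no proteasome subunit, so it was left out of every count, leaving 42. By role they were 7 alpha and 7 beta subunits of the core particle, the 3 immune beta subunits Psmb8, Psmb9 and Psmb10, 6 ATPases and 14 further genes of the regulatory particle, and 5 activator genes. The study grew muscle stem cells from young or aged wild-type mice (WT, C57BL/6) on silicone sheets (polydimethylsiloxane) that were soft (12 kPa) or stiff (29 kPa). All 4 groups spent 7 days in DMEM with fetal bovine serum, penicillin and streptomycin, and the cells were released with trypsin and profiled one by one with droplet 3′ RNA sequencing. Each group was 1 library, called young soft, young stiff, aged soft or aged stiff by age and substrate, and neither the ages in months nor the number of animals behind a library is given in the sources used here. With 1 library per group no difference between groups could be tested, so values are descriptions of these 4 libraries and the intervals given cover counting error only.

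The proteasome is the protease that degrades proteins tagged with ubiquitin. Its core particle is a barrel of alpha and beta rings, and 3 of the beta subunits, Psmb5, Psmb6 and Psmb7, carry the active sites. The regulatory particle caps the barrel: its ATPases (Psmc genes) unfold the substrate and its other subunits (most Psmd genes) bind ubiquitin, remove it and hold the cap together. Interferon induces Psmb8, Psmb9 and Psmb10, which replace Psmb5, Psmb6 and Psmb7 in the immunoproteasome, and it also induces Psme1 and Psme2, which form the activator PA28 that opens the core without ATP. In muscle the ubiquitin and proteasome system removes proteins both while myoblasts turn into myotubes and during wasting.

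The libraries held between 1333 and 1739 cells, with median counts of 28612 to 37081 unique molecules (UMIs) per cell, and 1 cell barcode occurred in both the young soft and the aged stiff library. Levels are CPM, the UMIs of a gene scaled to a common total per cell, averaged over the cells of a library. Because 1 tag is counted per molecule, levels were not divided by gene length, and comparisons between genes are descriptive. The labelled cell type was checked with marker lists. The 8 markers of muscle stem cells and myoblasts summed to between 4558 CPM (young soft) and 6529 CPM (aged stiff), and the 10 markers of myocytes, which are differentiating muscle cells, to between 28295 and 54000 CPM. Both sets of markers were present in every library, and 6 markers of cycling cells summed to 815 CPM in young soft, 814 in young stiff, 286 in aged soft and 212 in aged stiff. Summed markers of endothelial cells stayed at or under 0.202 CPM, those of immune cells between 3.60 and 16.4 CPM, and those of fibro-adipogenic cells between 88.3 and 254 CPM.

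All 4 libraries expressed the 42 genes at like levels, and Psmb5 led in each, with a UMI in 99.8% to 99.9% of cells. The genes' UMIs made up 0.814% of all UMIs in young soft, 0.815% in young stiff, 0.880% in aged soft and 0.845% in aged stiff. The core and the regulatory particle contributed about equally. In young soft the 14 core genes summed to 4007 CPM and the 20 regulatory genes to 4027 CPM. In aged soft the core genes were ahead, at 4585 CPM against 4251 CPM. A median cell of the young soft library held 281 UMIs of the 42 genes together.

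Among the core genes Psmb5, the chymotrypsin-like active site, stood highest, with 525 CPM in young soft, 554 in young stiff, 670 in aged soft and 688 in aged stiff. The other active sites were lower, at 319 to 386 CPM for the caspase-like Psmb6 and 156 to 205 CPM for the trypsin-like Psmb7. Of the alpha subunits, which form the outer rings and the gate, Psma3 (386 to 450 CPM) and Psma7 (362 to 403 CPM) were highest, and Psma1 (123 to 149 CPM) was lowest. Subunits that share a ring in the particle thus differed severalfold in tag count. Psmb3, a beta subunit without an active site, lay at 307 CPM in young soft, 314 in young stiff, 426 in aged soft and 398 in aged stiff.

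Of the ATPases, Psmc3 (411 to 438 CPM) and Psmc1 (298 to 317 CPM) were highest. Among the non-ATPase genes the lid subunit Psmd8 was highest, with 372 CPM in young soft, 400 in young stiff, 537 in aged soft and 571 in aged stiff, followed by Psmd7 (279 to 304 CPM), the lid partner of the deubiquitinase Psmd14 (121 CPM in young soft, 113 in aged soft). The lowest of this group were Psmd5, Psmd9 and Psmd10, which encode chaperones that help assemble the ATPase ring and are not part of the finished particle, at 35.9 to 53.8 CPM. The activator genes were about as low: Psme1 at 38.8 to 42.5 CPM, its partner Psme2 at 50.4 to 54.8 CPM, the nuclear activator Psme3 at 40.1 to 43.6 CPM and Psme4 (PA200), a single large chain that also caps the core, at 83.2 to 97.3 CPM. Psme2b, a near copy of Psme2, reached at most 0.829 CPM.

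**Figure D1:**
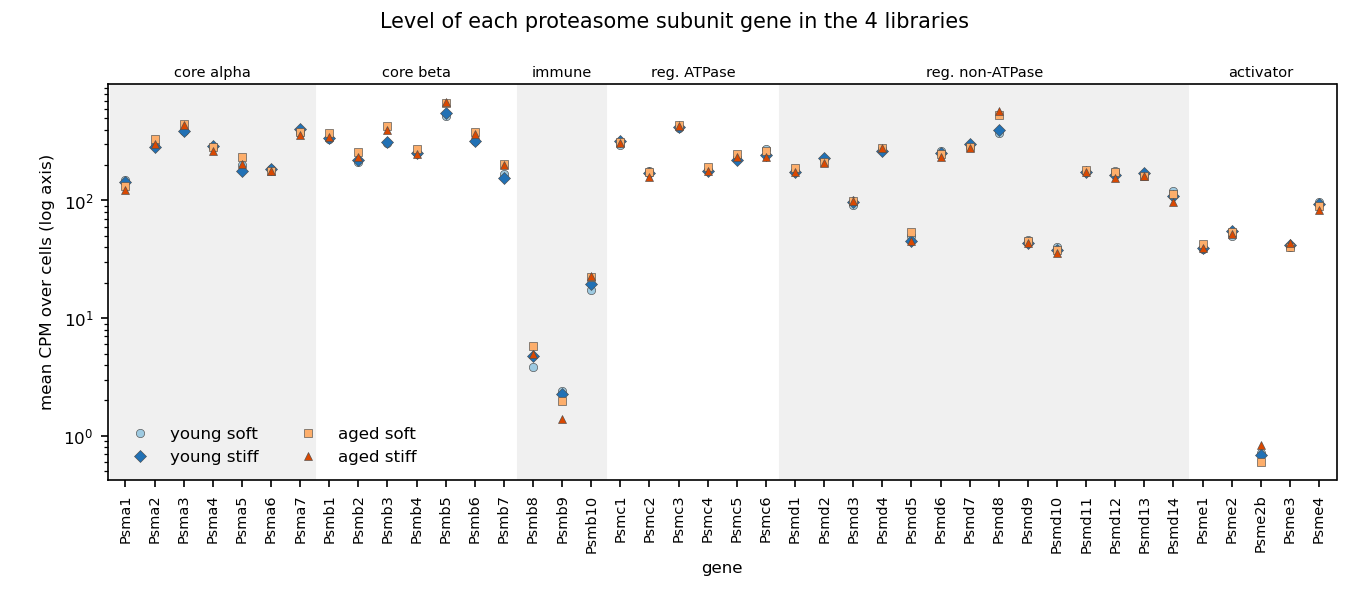
Mean CPM over cells (log axis) of the 42 subunit genes, grouped by role, in each of the 4 libraries (1 symbol per library). Psmb5 and Psmd8 are the highest genes, at up to 688 and 571 CPM, the assembly chaperones Psmd5, Psmd9 and Psmd10 lie at 35.9 to 53.8 CPM, and Psmb8, Psmb9 and Psme2b are the lowest.

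Core and regulatory genes also went together from cell to cell. Across the cells of a library the Pearson correlation of their summed levels (log2) was 0.81 in young soft (n = 1360 cells), 0.80 in young stiff, 0.85 in aged soft and 0.85 in aged stiff, while the correlation of the core genes with Psme1 plus Psme2 was 0.30 to 0.36. These are descriptions: the cells share a library, their depths differ, and the sums of few genes are noisier than those of many. For 7 of the 42 genes the 3′ end is not unique, with over 50% of all 30-base words of its final 500 bases found in other transcripts too, such as pseudogenes (Psma5, Psmb3, Psmb5, Psmd1, Psmd2, Psme2 and Psme2b), so reads could have been split or lost there and their values are uncertain.

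The upstream sequences of 4 members are printed to show what lies just ahead of them: Psmb5, Psmb6 and Psmd8, which were higher in cells with much myogenin, and the interferon-linked Psme1, which was lower there. They are the 250 bases before the annotated start in RefSeq (GRCm38.p6), 5′ to 3′ on the gene's strand, at chr14:54617996-54618245 (minus strand) for Psmb5, chr11:70525107-70525356 (plus) for Psmb6, chr7:29180674-29180923 (minus) for Psmd8 and chr14:55578244-55578493 (plus) for Psme1. Capitals mark matches to the motifs searched.
Psmb5: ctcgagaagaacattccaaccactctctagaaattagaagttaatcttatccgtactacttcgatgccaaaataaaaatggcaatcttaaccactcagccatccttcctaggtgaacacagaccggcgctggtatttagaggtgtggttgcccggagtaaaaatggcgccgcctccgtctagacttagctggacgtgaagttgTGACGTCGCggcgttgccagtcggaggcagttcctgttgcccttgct
Psmb6: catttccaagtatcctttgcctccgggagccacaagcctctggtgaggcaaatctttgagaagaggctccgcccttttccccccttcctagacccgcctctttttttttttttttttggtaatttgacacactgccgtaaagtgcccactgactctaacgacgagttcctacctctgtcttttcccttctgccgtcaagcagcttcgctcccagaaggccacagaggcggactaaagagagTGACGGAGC
Psmd8: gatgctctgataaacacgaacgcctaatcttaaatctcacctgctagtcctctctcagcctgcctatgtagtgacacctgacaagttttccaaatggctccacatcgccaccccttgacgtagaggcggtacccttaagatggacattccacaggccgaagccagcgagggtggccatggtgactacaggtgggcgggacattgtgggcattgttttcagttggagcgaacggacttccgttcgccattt
Psme1: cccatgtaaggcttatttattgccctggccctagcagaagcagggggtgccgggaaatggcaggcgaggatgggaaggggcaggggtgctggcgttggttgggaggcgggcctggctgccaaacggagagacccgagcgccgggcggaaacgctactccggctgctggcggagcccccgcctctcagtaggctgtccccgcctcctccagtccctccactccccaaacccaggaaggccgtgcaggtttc
The capitals in Psmb5 (first base at position -47 from the start) and in Psmb6 (-9) are the core of the antioxidant response element, TGACNNNGC, which the proteasome regulator Nfe2l1 and its relative Nfe2l2 are known to bind. Psmd8 and Psme1 had no match in the printed bases. Windows of 300 bases (250 before and 50 after the start, both strands searched) were at hand for 36 of the member genes, 39 windows in all. TGACNNNGC was in 15.4% of them, in Psmb5, Psmb6, Psmc6, Psmd9, Psmd12 and Psme4, against 12.4% of 32851 windows of all genes. CCAAT, the box bound by NF-Y, was in 33.3% against 37.4%, the E-box CAGCTG in 7.69% against 16.3%, and the interferon-stimulated response element in 10.3% (Psmb3, Psmd4, Psmd9 and Psme1) against 3.44%. The 4 motifs were searched separately, so matches could overlap, and a match is a description of letters, not a bound site.

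Most subunit genes were higher in cells with much myogenin. Myog encodes the transcription factor myogenin, which rises when a myoblast commits to differentiate, and each library's cells were split by their own Myog level into under 100, 100 to under 1000, 1000 to under 3000, and 3000 CPM or more. The 42 genes summed, from the lowest to the highest Myog level, to 8460, 7560, 7199 and 10032 CPM in young soft. The sums were 8743, 7319, 7314 and 9687 CPM in young stiff, 9771, 7286, 8219 and 11812 CPM in aged soft, and 9740, 7368, 8070 and 11388 CPM in aged stiff. In every library the top Myog level was the highest and one of the 2 middle levels the lowest, so the relation to Myog was not a steady rise. Mean UMIs of these genes per cell were also higher in the top level than in the lowest, at 388 against 268 in young soft, 304 against 220 in young stiff, 408 against 246 in aged soft and 411 against 255 in aged stiff. Cells under 100 CPM of Myog were shallower (median 23217 UMIs in aged soft, against 32875 in the top level), and 8.92% to 9.45% of each library's cells lay within 1.2-fold of the 3000 CPM boundary.

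**Figure D2:**
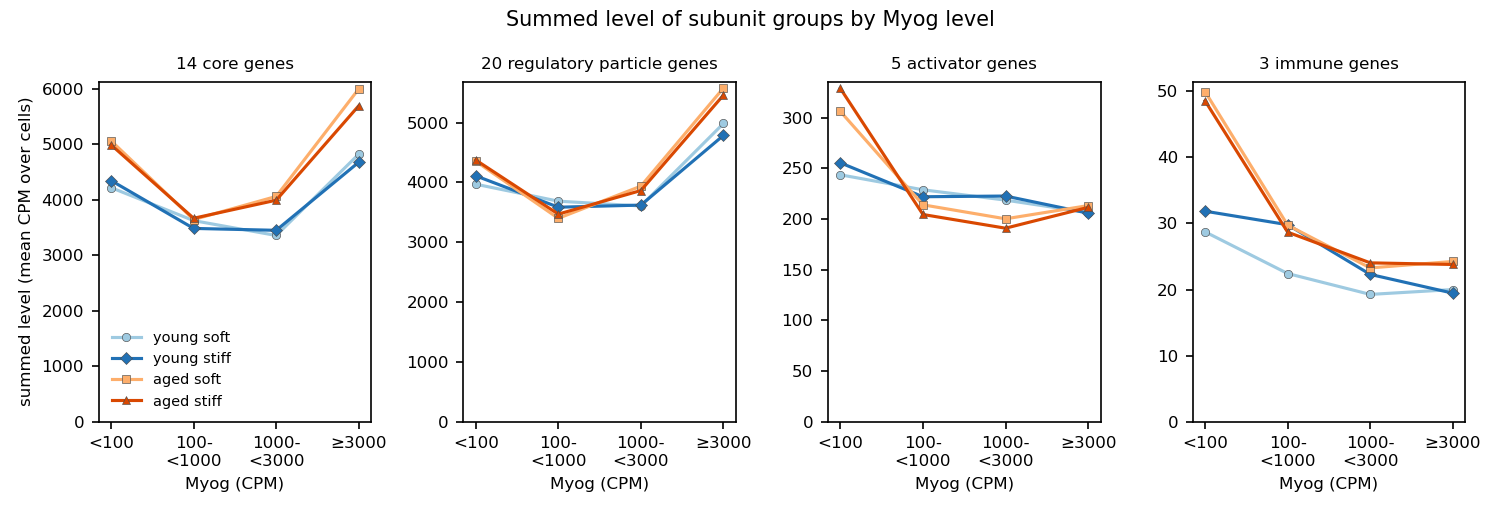
Summed level (mean CPM over cells) of the 14 core, 20 regulatory, 5 activator and 3 immune genes at 4 Myog levels (CPM) in each library, with axes from 0. Core and regulatory genes dip at the middle levels and are highest at 3000 CPM or more; the immune genes are highest in cells under 100 CPM, at 48.6 CPM in aged stiff.

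Gene by gene, the log2 ratio of the top to the lowest Myog level (mean CPM + 5, genes with at least 20 CPM in either level) had a median over the subunit genes of 0.21 in young soft, 0.13 in young stiff, 0.19 in aged soft and 0.18 in aged stiff, while the median of all genes measured was -0.18, -0.23, -0.22 and -0.22. In young soft 16 of 38 measured subunit genes were at least 1.2 times higher, against 23.5% of all genes, and 2 were at least 1.2 times lower, against 44.4%. In young stiff the numbers were 6 and 5 of 38, against 22.6% and 47.8%. In aged soft they were 16 and 4 of 39, against 22.7% and 47.2%, and in aged stiff 13 and 4 of 40, against 22.2% and 46.8%. With median-of-ratios scaling, which centres the ratios on the typical gene and shifts them by 0.10 to 0.14, the genes at least 1.2 times higher numbered 22, 20, 25 and 23, against 28.4%, 28.9%, 28.6% and 28.9% of all genes. Of the 38 genes measured in all 4 libraries, 26 were higher in the top level in every library, against 29.8% of all genes, and 6 were lower in every library, against 54.2%.

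The subunits that led this contrast came from both particles. Psmd8 had the largest mean log2 ratio over the 4 libraries, 0.74: it went from 254 to 399 CPM in young soft, 259 to 444 in young stiff, 314 to 540 in aged soft and 313 to 538 in aged stiff. Psmb5 followed with 0.71, going from 443 to 670 CPM, 473 to 704, 505 to 926 and 514 to 906 CPM in the same order. For both genes the 4 low and the 4 high values did not overlap. Both were picked as the largest ratios, so this adds no support. Of the 38 genes measured in all 4 libraries, 6 were at least 1.2 times higher in every library, against 18.1% of all genes. Psmd8 was higher still at the level of 1000 to under 3000 CPM, at 500, 520, 628 and 641 CPM. The base ATPase Psmc1 (mean log2 ratio 0.52), the lid subunit Psmd6 (0.52) and the active site Psmb7 (0.50) came next, and the active site Psmb6 had 0.30.

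Another set went the other way. Of the 38 genes measured in all 4 libraries Psme1 had the lowest mean log2 ratio, -1.17: it lay at 60.1 CPM in low-Myog and 29.5 CPM in high-Myog cells of young soft, at 68.0 and 26.3 in young stiff, at 102 and 41.4 in aged soft and at 117 and 43.5 in aged stiff. Psme2 had a mean log2 ratio of -0.67, and Psme1 and Psme2 were the only measured members at least 1.2 times lower in all 4 libraries, against 36.7% of all genes. The assembly chaperones Psmd5 (-0.49) and Psmd9 (-0.28), the gate-ring subunit Psma7 (-0.17) and the beta subunit Psmb4 (-0.12) were also lower in each library, while Psmd10, the other assembly chaperone, had a mean of 0.17 and was higher in 3 of 4 libraries. The other activators, Psme3 (0.18) and Psme4 (0.11), were on average higher.

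**Figure D3:**
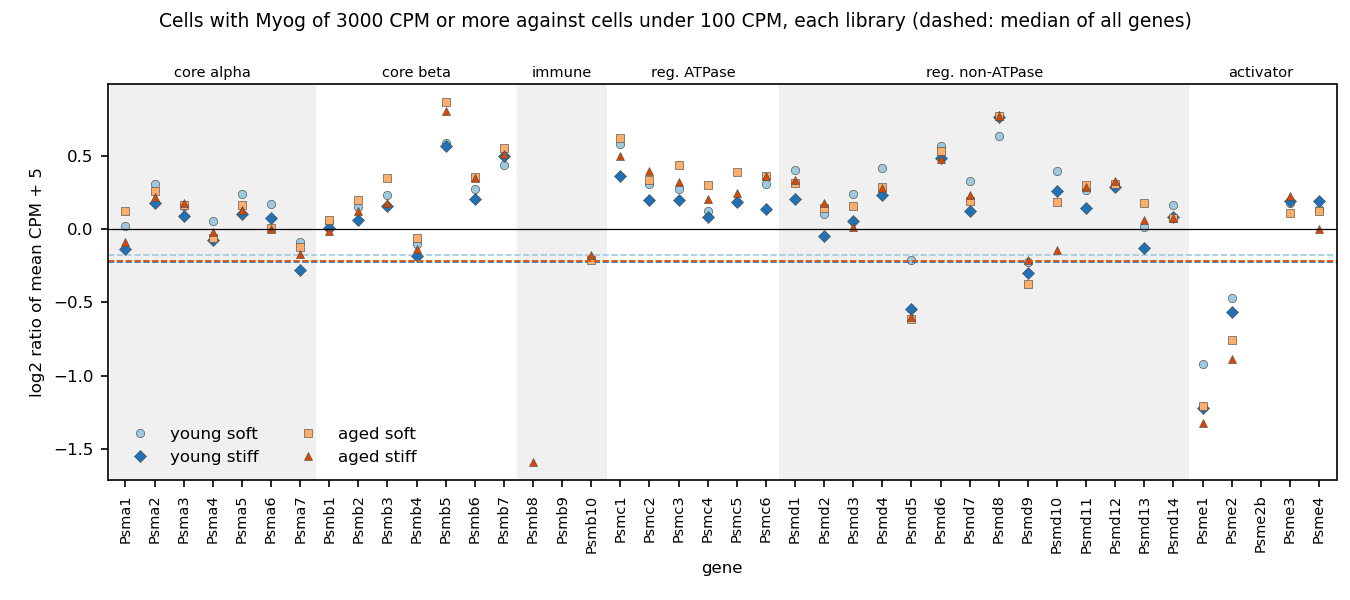
Log2 ratio of mean CPM + 5 in cells with Myog at 3000 CPM or more against cells under 100 CPM, for each subunit gene measured, 1 symbol per library; dashed lines are each library's median over all genes. Psmb5, Psmb7, Psmc1, Psmd6 and Psmd8 stand well above 0, and Psme1, Psme2 and Psmd5 below it.

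Myogenin is known to decline again in mature fibres, so the cells were also split by Acta1, skeletal alpha-actin of the sarcomere. Acta1 alone was taken first, as cells at 10000 CPM or more against cells under 100 CPM. The subunit median log2 ratio was -0.355 in young soft and -0.361 in young stiff. The medians of all genes were -0.364 and -0.387, so there the subunit genes were about as much lower as a typical gene. In the aged libraries the 42 genes summed to 8572 against 10404 CPM on soft and 8087 against 10370 CPM on stiff. Myog and Acta1 were then crossed, a step chosen after the Myog split had been seen. The first class held cells with Myog under 100 and Acta1 under 1000 CPM, the second those with Myog at 3000 or more and Acta1 under 1000, the third those with Myog at 3000 or more and Acta1 at 1000 or more, and the fourth those with Myog under 3000 and Acta1 at 10000 or more. From the first to the fourth class the 34 core and regulatory genes summed to 8191, 10675, 9595 and 6741 CPM in young soft. They summed to 8460, 10007, 9353 and 6692 CPM in young stiff, 9511, 13137, 11232 and 7344 CPM in aged soft, and 9496, 11716, 11044 and 7360 CPM in aged stiff. The second class, only 49 to 55 cells per library, was the highest and the fourth the lowest in all 4 libraries.

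Of these 34 genes 18 were highest in the second class in every library, against 13.0% of all genes, and 29 were lowest in the fourth, against 39.2%. With median-of-ratios scaling the 18 became 7, against 8.90%, while 7 were highest in the third class, against 4.98%, and the 29 became 22, against 28.3%. CPM is a share of a cell's UMIs, and the cells of the fourth class held more of them (median 38579 UMIs in aged soft, against 23267 in the first class). In UMIs per cell the 34 genes were lowest in the first class and highest in the third: from the first to the fourth class their means were 260, 351, 386 and 288 in young soft, 213, 233, 309 and 225 in young stiff, 240, 312, 420 and 310 in aged soft, and 243, 307, 421 and 328 in aged stiff. Psma1 showed the common course, at 172, 201, 167 and 99.8 CPM in young soft and 166, 223, 167 and 94.3 CPM in aged soft. Psmd14, the deubiquitinase of the lid, went from 138 to 195, 145 and 72.8 CPM in young soft.

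A few subunits took another course. Psmd8 was higher in each class than in the one before, at 252, 263, 432 and 534 CPM in young soft, 259, 308, 471 and 576 in young stiff, 308, 389, 573 and 656 in aged soft and 298, 380, 568 and 675 in aged stiff. It was the only core or regulatory gene highest in the fourth class in every library, against 15.6% of all genes. Psme4, the single-chain activator, was highest there too, with 124 CPM against 79.6 in the first class of young soft and 109 against 75.9 in young stiff. Psmb5 peaked in the third class, at 702 CPM in young soft, 722 in young stiff, 956 in aged soft and 944 in aged stiff, and stayed at 582 to 700 CPM in the fourth. Psmb5, Psmb7 and Psmd8 were the 3 genes lowest in the first class in all 4 libraries, against 14.1% of all genes. Psme1 and Psme2 were highest in the first class, against 28.1%, and lowest in the fourth, with Psme1 at 60.5 and 13.1 CPM in young soft and at 123 and 13.4 CPM in aged stiff. The calls of Psmd8, Psme4, Psmb5, Psmb7, Psme1 and Psme2 were the same under median-of-ratios scaling, where 22.7% of all genes were highest in the fourth class, 17.4% lowest in the first and 25.4% highest in the first.

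**Figure D4:**
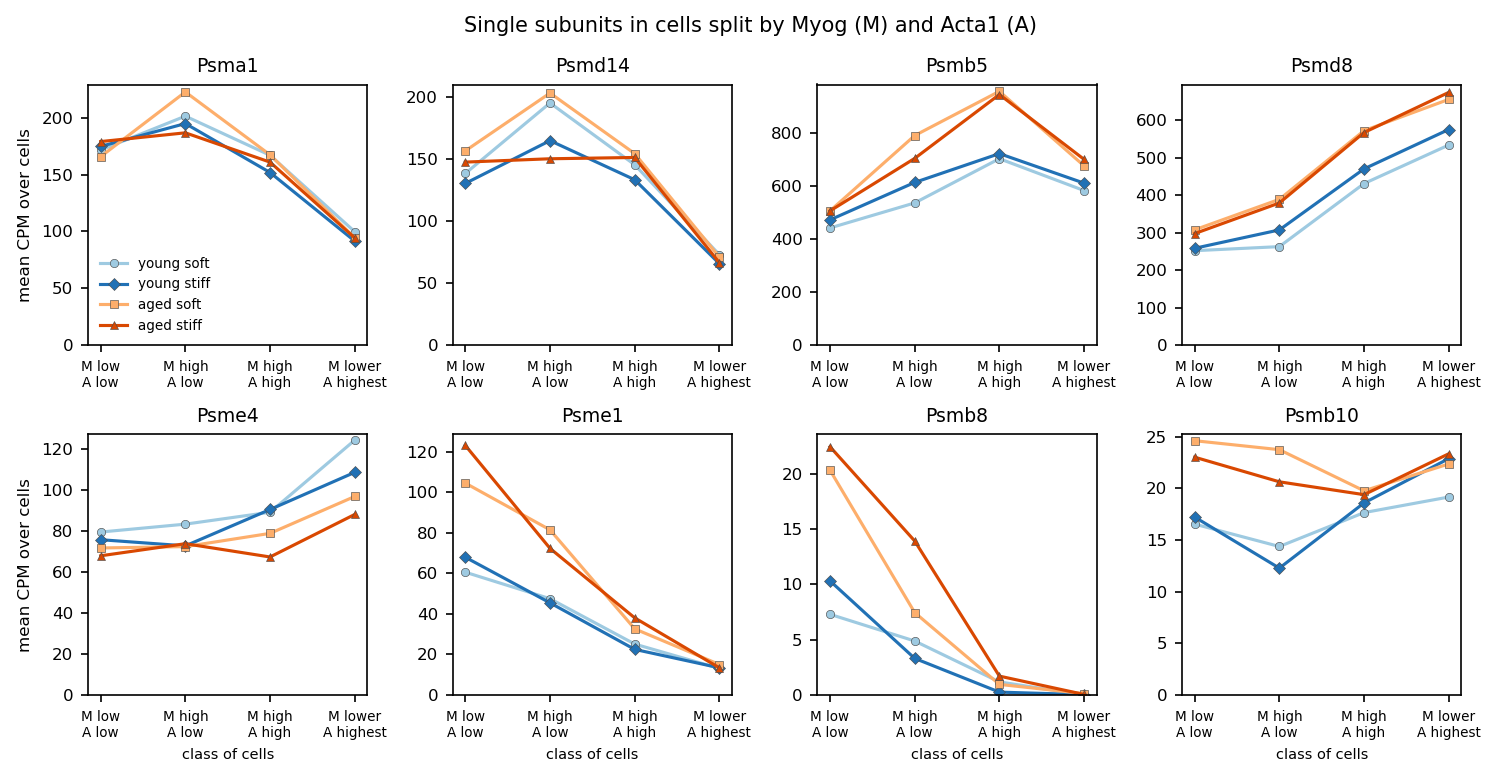
Mean CPM over cells of 8 members in 4 classes of cells split by Myog (M) and Acta1 (A), in the order given in the text, 1 line per library, axes from 0. Psma1 and Psmd14 are lowest in the cells with most Acta1, Psmd8 and Psme4 highest there, Psmb5 peaks between, and Psme1 and Psmb8 decline from the first class on.

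The aged libraries had more of the beta subunits of the core, and of Psmd8, than the young ones. On soft substrate 7 of 7 core beta genes were higher in the aged library (median log2 ratio 0.27), against 35.3% of all genes, and on stiff 6 of 7 (0.19), against 35.6%. The genes at least 1.2 times higher on soft were Psmb3, Psmb5, Psmb6, Psmb7, Psmb10 and Psmd8, 6 of 39 measured, against 12.9% of all genes. On stiff they were Psmb3, Psmb5, Psmb7 and Psmd8, 4 of 39, against 14.4%. Both counts were near the share of all genes. Psmb3 and Psmb5 are among the genes of shared 3′ sequence. No subunit gene was 1.2 times lower on either substrate, against 34.1% of all genes on soft and 35.2% on stiff. The 2 comparisons share no library, but each rests on 1 library per age.

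Psmd8 had the largest ratio, 0.53 on soft and 0.51 on stiff (log2). The ratio of its summed UMIs was 1.48 on soft (95% interval 1.45 to 1.51) and 1.44 on stiff (1.42 to 1.47). Psmb3 had log2 ratios of 0.47 and 0.34, Psmb5 of 0.35 and 0.31, and Psmb7 of 0.28 and 0.35. In all 4 of these genes both aged libraries lay above both young ones. The genes were named among the largest ratios, and the share of all genes with such an order is not given here, so this adds no support. The lowest were Psma1, with -0.17 on soft and -0.20 on stiff, and Psme4, with -0.11 and -0.17.

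Over all subunit genes the aged to young median was 0.08 on soft, with 25 of 39 higher, and -0.01 on stiff, with 18 of 39 higher, while the medians of all genes were -0.12 and -0.13. The regulatory particle had a median of 0.02 on soft, with 10 of 20 higher. Median-of-ratios scaling moved all ratios up by 0.11 and 0.10. With it the subunit medians were 0.18 and 0.10, 37 and 31 of the genes were higher, against 47.0% and 46.9%, and 10 and 8 were at least 1.2 times higher, against 19.8% and 20.7% of all genes. The aged libraries held fewer cells under 100 CPM of Myog (19.3% and 14.5%, against 38.1% and 36.6%) and summed to 28295 and 31002 CPM (young) against 47489 and 54000 CPM (aged) in the myocyte markers. They also held more cells under 1% of mitochondrial counts (83 and 109, against 21 and 13), and without these cells the subunit medians were 0.11 on soft and 0.02 on stiff, with 7 and 4 genes at least 1.2 times higher.

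**Figure D5:**
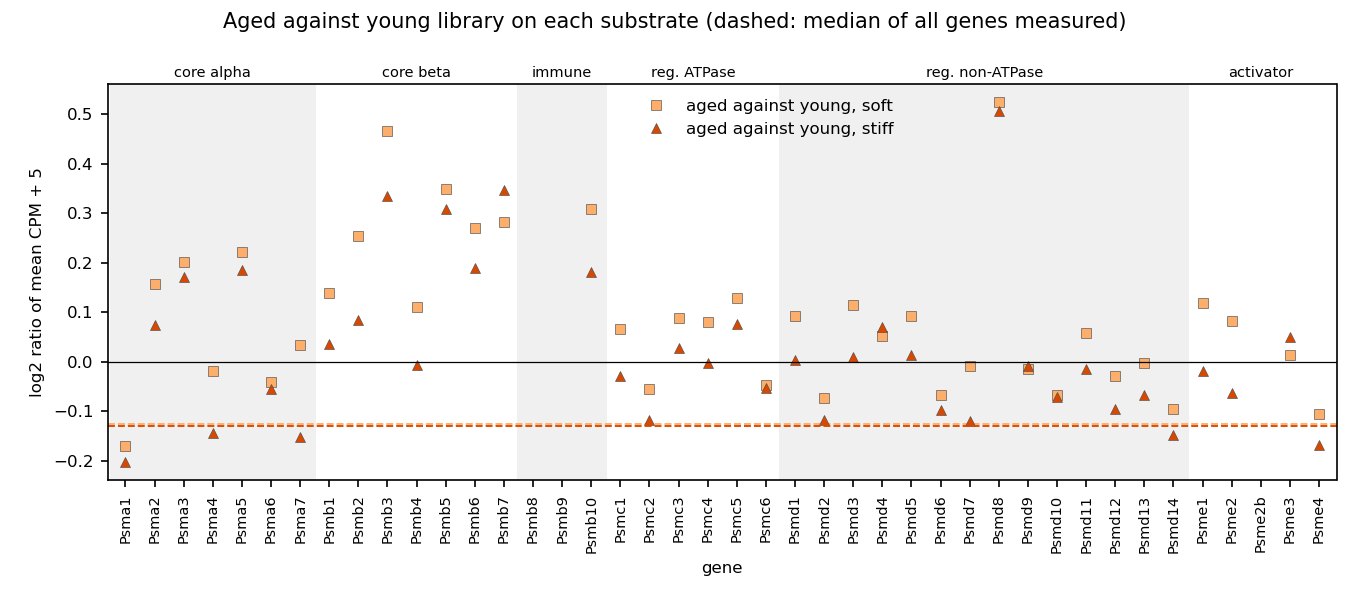
Log2 ratio of mean CPM + 5, aged against young library, for each subunit gene measured, on soft (squares) and stiff (triangles) substrate; dashed lines are the medians of all genes measured. Psmd8 lies highest, at 0.53 and 0.51, the core beta genes Psmb3, Psmb5 and Psmb7 are among the highest on both substrates, and Psma1 lies lowest.

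The age difference was also taken within each Myog level. On soft the median over the subunit genes was 0.16 in cells under 100 CPM of Myog, -0.12 at 100 to under 1000, 0.18 at 1000 to under 3000 and 0.19 at 3000 or more. On stiff it was 0.14, -0.11, 0.10 and 0.20. At the level of 100 to under 1000 CPM 7 of 39 genes were at least 1.2 times lower with age on soft, against 38.7% of all genes. All 7 core beta genes were higher in the aged library at the lowest and the 2 top levels on both substrates, and 5 of 7 at the level from 100 to under 1000. The shares of all genes that were higher, from the lowest to the highest level, were 41.9%, 38.0%, 39.9% and 36.4% on soft and 43.7%, 36.7%, 38.9% and 44.1% on stiff. At 3000 CPM or more on soft all 7 were at least 1.2 times higher, against 10.8% of all genes, with Psmb3 at 563 against 372 CPM and Psmb5 at 926 against 670 CPM. Psmd8 was at least 1.2 times higher at all 4 levels on both substrates, with log2 ratios from 0.27 to 0.57, where 12.8%, 17.1%, 10.6% and 10.8% of all genes passed on soft and 12.9%, 13.8%, 9.35% and 10.6% on stiff.

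In cells with little Myog the interferon-linked Psme1, Psme2 and Psmb8 were higher in the aged libraries, while Psme1 and Psme2 were about level over whole libraries. Psme1 averaged 38.8 and 39.8 CPM over the whole young libraries (soft, then stiff) and 42.5 and 39.3 CPM over the aged ones. Among cells under 100 CPM of Myog it was 60.1 and 68.0 CPM in the young and 102 and 117 CPM in the aged libraries. The ratio of its summed UMIs, aged against young, was 1.75 on soft (95% interval 1.58 to 1.94) and 1.69 on stiff (1.53 to 1.87). Psme2 went from 65.8 and 73.7 to 97.7 and 107 CPM, and Psmb8 from 7.23 and 10.3 to 19.8 and 21.1 CPM, a ratio of summed UMIs of 2.74 (2.11 to 3.55) on soft and 2.25 (1.76 to 2.89) on stiff. For these 3 genes both aged values lay above both young ones. They were picked with results of these data known, and the share of all genes that did so was not counted. At 100 to under 1000 CPM of Myog the order of Psme1 was the other way, with 37.1 and 25.5 CPM in the young and 23.2 and 22.9 CPM in the aged libraries. Under 100 CPM of Myog Psmb10 was higher with age too, at 16.7 and 17.2 CPM in the young and 24.5 and 22.8 CPM in the aged cells. Psmb9 did not share this: it had 4.81 and 4.43 CPM in the young and 5.61 and 4.66 CPM in the aged cells, on 25 to 83 UMIs. Of all genes 12.8% on soft and 12.9% on stiff were at least 1.2 times higher with age at this level.

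The sum of immune cell markers moved with these values. Of the 10 fixed immune markers 9 were in the tables, and in cells under 100 CPM of Myog they summed to 2.72 and 3.30 CPM in the young and 8.47 and 10.5 CPM in the aged libraries. At least 1 immune marker UMI was found in 37 of 518, 38 of 542, 55 of 257 and 55 of 252 of these cells. The pan-leukocyte marker Ptprc was in 1 of them, in aged soft. Without the cells that had any immune marker UMI, Psme1 lay at 59.6, 68.5, 101 and 122 CPM and Psmb8 at 7.41, 10.5, 20.3 and 22.7 CPM, in the same order of libraries. The difference thus remained in cells without a marker UMI. At such low marker levels a cell can lack a marker UMI whatever its type, and the source of the difference was not tested. In whole libraries a Ptprc UMI was found in no young cell, which allows a share of cells with such a UMI, not of cells that express the gene, of up to 0.221% in young soft and 0.203% in young stiff. It was found in 5 and 3 aged cells. A macrophage gene, Lyz2, had a UMI in 11 and 8 young and in 206 and 295 aged cells. Another macrophage gene, Cd68, did not rise in this way, with a UMI in 39 and 53 young and in 47 and 59 aged cells. A UMI can come from free RNA.

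The immune subunits were otherwise rare. Psmb8 made up 0.604% of the UMIs of Psmb8 and its counterpart Psmb5 in young soft, 0.683% in young stiff, 0.576% in aged soft and 0.472% in aged stiff. Psmb9 made up 0.694%, 0.620%, 0.360% and 0.253% of the pair with Psmb6, on 62 to 109 UMIs. The exact 95% intervals of the share of Psmb9 were 0.570% to 0.836% in young soft and 0.278% to 0.460% in aged soft, which do not overlap. Psmb10 was another case: it made up 9.45%, 11.2%, 9.99% and 10.2% of the pair with Psmb7.

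Psmb10 also parted from its partners across differentiation. It stayed at 16.5, 14.4, 17.7 and 19.2 CPM through the 4 classes of Myog and Acta1 in young soft, and at 24.6, 23.7, 19.8 and 22.4 CPM in aged soft. Psmb8 in the same classes of aged soft was at 20.3, 7.45, 0.957 and 0.125 CPM. In the fourth class of young soft, neither Psmb8 nor Psmb9 had a UMI in 378 cells, which allows up to 0.187 CPM, so free RNA in the droplets added at most that much to them in this class.

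Soft and stiff libraries differed little in the subunit genes. In the young libraries the median log2 ratio of stiff against soft was 0.00, with 20 of 38 genes higher, against 38.9% of all genes, and no gene passed 1.2 times in either direction, against 0.365% of all genes higher and 1.41% lower. In the aged libraries it was -0.08, with 5 of 39 higher against 37.1% of all genes, and again no gene passed 1.2 times, against 0.865% and 3.21%. The median of all genes was -0.03 in both. With the cells weighted to the same Myog levels the aged median was -0.03. The single genes with the lowest ratios were the ATPase Psmc6, at 275 CPM on soft and 244 on stiff in young and 266 and 235 in aged cells (log2 ratios -0.16 and -0.17), Psma5 (-0.16 and -0.20), Psmd14 (-0.15 and -0.20) and Psmd5 (-0.14 and -0.22). These 4 were lower on stiff at both ages. Psmd8 was higher on stiff at both ages (0.10 and 0.09), and so was Psmb5 (0.08 and 0.04). Beside each ratio stands a counting error with a median half-width of 2.94% in young and 2.65% in aged, and how far 2 cultures on one substrate differ was not measured.

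The genes around the proteasome were taken as fixed lists. With age, the muscle ubiquitin ligases were higher more often than lower: on soft 4 of 12 measured genes were at least 1.2 times higher, against 12.9% of all genes, and 1 lower, against 34.1%, and on stiff 6 and 1, against 14.4% and 35.2%. Klhl41, a ligase adaptor of the sarcomere, was at 313 and 306 CPM in the young and 508 and 549 CPM in the aged libraries, and Fbxo40, a muscle F-box protein, at 11.1 and 16.2 against 23.8 and 30.4 CPM. The list of transcription factors that control subunit genes, with their partners, had 4 of 7 genes at least 1.2 times lower on soft, against 34.1% of all genes, and 3 of 7 on stiff, against 35.2%, a share near that of all genes; none was 1.2 times higher. In it Nfe2l2 went from 237 to 181 CPM on soft and from 238 to 158 CPM on stiff, and Mafg from 72.6 to 54.4 and from 72.8 to 55.0 CPM. Nfe2l1 was not lower, going from 366 to 395 CPM on soft and from 377 to 387 CPM on stiff. Mafk, too low to be measured, went from 12.6 to 17.9 and from 14.8 to 17.1 CPM. Nfe2l2 and Mafg thus lay lower in the aged libraries, in which the core beta genes lay higher, while Nfe2l1 and Mafk did not. A link was not tested.

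Of 5 measured assembly chaperones of the core, none was 1.2 times higher with age, against 12.9% of all genes on soft and 14.4% on stiff. Psmg2 was lower on soft (59.3 to 48.0 CPM), 1 of 5 against 34.1%, and none was 1.2 times lower on stiff, against 35.2%. Of 13 associated deubiquitinases and receptors, the docking protein Adrm1 was higher on both substrates (98.1 to 123 and 103 to 130 CPM) and Ubqln2 lower (32.3 to 21.6 and 30.9 to 18.2 CPM). Among the antigen processing genes H2-K1, a class I heavy chain, went from 31.2 to 62.3 CPM on soft and from 29.3 to 58.2 CPM on stiff, while Pdia3, a chaperone of the endoplasmic reticulum, went from 221 to 122 and from 201 to 110 CPM.

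Across Myog levels 3 of 5 assembly chaperones were at least 1.2 times higher at high Myog in every library, against 18.1% of all genes (Psmg3 from 33.6 to 60.0 CPM, Psmg2 from 52.8 to 75.4 CPM and Pomp, the maturation protein of the core, from 262 to 323 CPM in young soft). Of the muscle ubiquitin ligases 9 of 11 measured were at least 1.2 times higher in young soft, against 23.5% of all genes, 9 of 12 in young stiff, against 22.6%, 8 of 12 in aged soft, against 22.7%, and 8 of 11 in aged stiff, against 22.2%. Trim63 (MuRF1) went from 0.577 to 58.0 CPM in young soft. Of the antigen processing genes 5 of 7 were at least 1.2 times lower in young soft, against 44.4% of all genes, 6 of 7 in young stiff, against 47.8%, and 5 of 7 in aged soft and in aged stiff, against 47.2% and 46.8%. Nfe2l2 was lower too, at 392 and 171 CPM in young soft and at 369 and 201 CPM in aged stiff.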

How the data were processed

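The 4 libraries, 1 per group, were made by droplet 3′ sequencing. Cell Ranger 6.1.2 and Partek are named in the submitters' processing notes, with no step given, and the genome build is not given in the sources used here. The deposited tables hold log2 values (log2 of CPM + 1 per cell) as the authors made them. CPM were taken back from them, and whole UMI counts from the steps between values (within 0.05 of a whole number). Cells were used from 500 genes upward and up to 20% mitochondrial counts. Doublets were neither called nor removed here.

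Ratios are log2 of mean CPM over cells + 5, which understates the differences of low genes, for genes with at least 20 CPM in either group, and a gene was counted at 1.2 times. Exact conditional binomial 95% intervals were computed for ratios of summed UMIs, which are another quantity than the ratio of mean CPM, and exact (Clopper-Pearson) ones for shares. A count of 0 allows 3 UMIs. These cover counting error only, and UMIs of 1 cell are not independent samples of a group. Nothing was tested, since cells are not replicates. Median half-widths of the intervals were 2.65% to 2.94% of the ratio between libraries. Members and lists were chosen with earlier results of these data known. The named members were the active-site, immune and activator genes, the 2 highest of each role and the 3 largest and smallest ratios per comparison, plus up to 2 genes per pathway list. Psmb2, Psmb4, Psmd6, Psmd9, Psmd10, Pomp and Trim63 were named after their values were seen. Alternatives were pseudocount, filter, scaling, summed UMIs, weighting to equal Myog levels and cell filters. Scripts were tested on simulated data and used Python 3.11.15, numpy 2.4.6, pandas 2.3.3, scipy 1.17.1 and matplotlib 3.10.9. Some results of the fixed lists are not reported here.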

Additional observations from a re-analysis of the deposited data

Results flagged for a closer look

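A few members had ratios of opposite sign in 2 comparisons of the same kind, with 1 library per group, so the difference could not be tested. Psma7, an alpha subunit, was higher on stiff than on soft substrate in the young libraries (log2 ratio 0.10) and lower in the aged libraries (-0.084). Psmb2, a beta subunit without an active site, had 0.035 in the young and -0.13 in the aged libraries for the same comparison. Psmb4, another such subunit, was higher in the aged than in the young library on soft (0.11) and about level on stiff (-0.0067).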

How the results depend on the processing

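Of 138 alternative values, 119 stayed near the reported one and 19 moved. In 4 of them a median close to 0 took the other sign: 3 were for aged against young on stiff (below, and 0.017 without cells under 1% mitochondrial counts), and the stiff to soft median of the young libraries went from 0.0024 to -0.0018 without members of shared 3′ sequence. The aged to young median on soft, 0.08, was 0.012 from summed UMIs, 0.18 with median-of-ratios scaling and 0.14 with cells weighted to the same Myog levels, and its 6 genes at least 1.2 times higher became 10 under either of the last. On stiff the median of -0.01 became 0.10 with median-of-ratios scaling and 0.12 with Myog weighting, and the 4 genes became 8 and 7, or 2 (Psmb7 and Psmd8) without members of shared 3′ sequence. The stiff to soft median of the aged libraries, -0.08, was -0.026 with Myog weighting. The Myog medians with median-of-ratios scaling were 0.31 in young soft, 0.27 in young stiff, 0.32 in aged soft and 0.32 in aged stiff, and 0.28 in aged stiff between the highest and lowest 25% of cells by Myog. The summed level of the immune subunits was 27.8 CPM in aged soft and 26.9 CPM in aged stiff from summed UMIs, against 30.4 and 29.0. The 18 genes highest in the class of high Myog and low Acta1 became 7 with median-of-ratios scaling. The cause of these moves was not tested. The classes of Myog and Acta1, the values within Myog levels, the set without shared 3′ sequence and the values without cells with an immune marker UMI were chosen after seeing the data. No paired analysis was possible because each group is 1 library.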
